A study of Canis lupus familiaris with 17 samples.

Results

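Immediate early genes were followed in the circulating leukocytes of each dog, cell type by cell type. The set comprised FOS, FOSB, JUN, JUNB, EGR1, ATF3, NR4A1, DUSP1 and NFKBIA, and its members were the genes counted under these symbols in all 17 dogs. Of the 9 genes, 8 were found among the 20257 genes counted, and JUN was not analysed here. The question was whether their levels follow the dog across all cell types or belong to 1 cell type.

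Immediate early genes are transcribed within minutes of a signal reaching a cell, without new protein synthesis, and many of their transcripts are short-lived. FOS, FOSB and JUNB encode subunits of the AP-1 transcription factor, EGR1 a zinc-finger transcription factor and ATF3 a stress-induced factor of the ATF/CREB family. NR4A1 encodes an orphan nuclear receptor that rises after antigen receptor signaling in lymphocytes. DUSP1 encodes a phosphatase that switches off MAP kinases, and NFKBIA encodes the NF-kB inhibitor IκBα, which NF-kB itself induces as a feedback. In blood leukocytes such genes also respond to the collection and processing of the sample.

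Single-cell RNA sequencing had been performed on peripheral blood mononuclear cells of 7 healthy dogs (H1 to H7) and 10 treatment-naïve dogs with osteosarcoma (OS; OS1 to OS10). All dogs were client-owned, of several breeds, listed as wild type, with no treatment named. Each dog gave 1 library, so a dog is the replicate. Dogs of the 2 groups differed in breed, age, home and make-up by sex and neutering as well as in disease. The groups were adult dogs, and the ages given by the study entered only an alternative of the test.

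Each dog's matrix held between 1332 (OS3) and 7748 barcodes and between 7740230 and 56510134 unique molecular identifiers (UMIs, each 1 captured transcript). From 93013 barcodes 80407 cells were clustered, with the members left out of the genes that formed the clusters. The 5 lineages compared each had at least 25 cells in all 17 dogs, namely 26274 CD4 T cells, 14585 CD8/NK cells, 6999 B cells, 15119 monocytes and 5646 neutrophils. The group of other T cells (3787 cells) also met this limit and was not among the 5. Most markers of these lineages were highest in their own lineage, with 8 of 10 markers of CD4 T cells, 16 of 17 of CD8/NK cells, 9 of 10 of B cells, 10 of 11 of monocytes and 14 of 14 of neutrophils. The same markers had named the clusters, so these counts are no independent check of the names. CD4 itself was highest in neutrophils, which carry CD4 in the dog, and CD79A, the exception among the B cell markers, was highest in CD4 T cells. OS1 kept 70.7% of its barcodes, against at least 87.5% in the other dogs, and 34.7% of the cells of H7 were neutrophils. The neutrophils here are those collected with the mononuclear cells by density centrifugation, not all circulating neutrophils. The study reports that their number varied markedly between samples. Of 91883 distinct barcodes 1124 occurred in more than 1 matrix, and no pair of matrices shared more than 22. Levels are given as CPM, a gene's UMIs scaled to all UMIs of the lineage in that dog with edgeR's TMM factors, and statistics used log2(CPM + 1).

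The 8 members were highest in myeloid cells. On the log2 scale FOS, FOSB, ATF3 and NFKBIA had their highest mean level in monocytes, and JUNB, EGR1, NR4A1 and DUSP1 had theirs in neutrophils. CPM is a share of a lineage's UMIs and does not give the order of transcripts per cell. Neutrophils had a median of 1793 UMIs a cell, against 11071 in monocytes. A DUSP1 UMI was found in 39.6% of neutrophils in the median of 14 dogs, against 74.0% of monocytes in that of 17. JUNB, EGR1 and NR4A1 had the same order by share of cells. These shares were taken at each lineage's own depth. After thinning to 2000 UMIs a cell the order was reversed, with medians in neutrophils and monocytes of 36.7 and 23.1% for DUSP1. They were 34.6 and 24.8% for NR4A1, 8.16 and 5.35% for JUNB and 3.29 and 2.93% for EGR1. Thinning left out 3593 of 5646 neutrophils, those with fewer UMIs. Between pairs of lineages, 178 of 288 differences within dogs passed an adjusted p of 0.05 in an exact two-sided sign-flip permutation test, and 184 had an unadjusted p below 0.05. Over 10146 genes 67.2% of 365256 such differences passed the same test. Unadjusted p was below 0.05 for 63.9% of the members' differences and 69.6% of all, so these counts show nothing particular to the members. Relative to CD4 T cells, monocytes were higher for each of the 8 members.

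**Figure D1:**
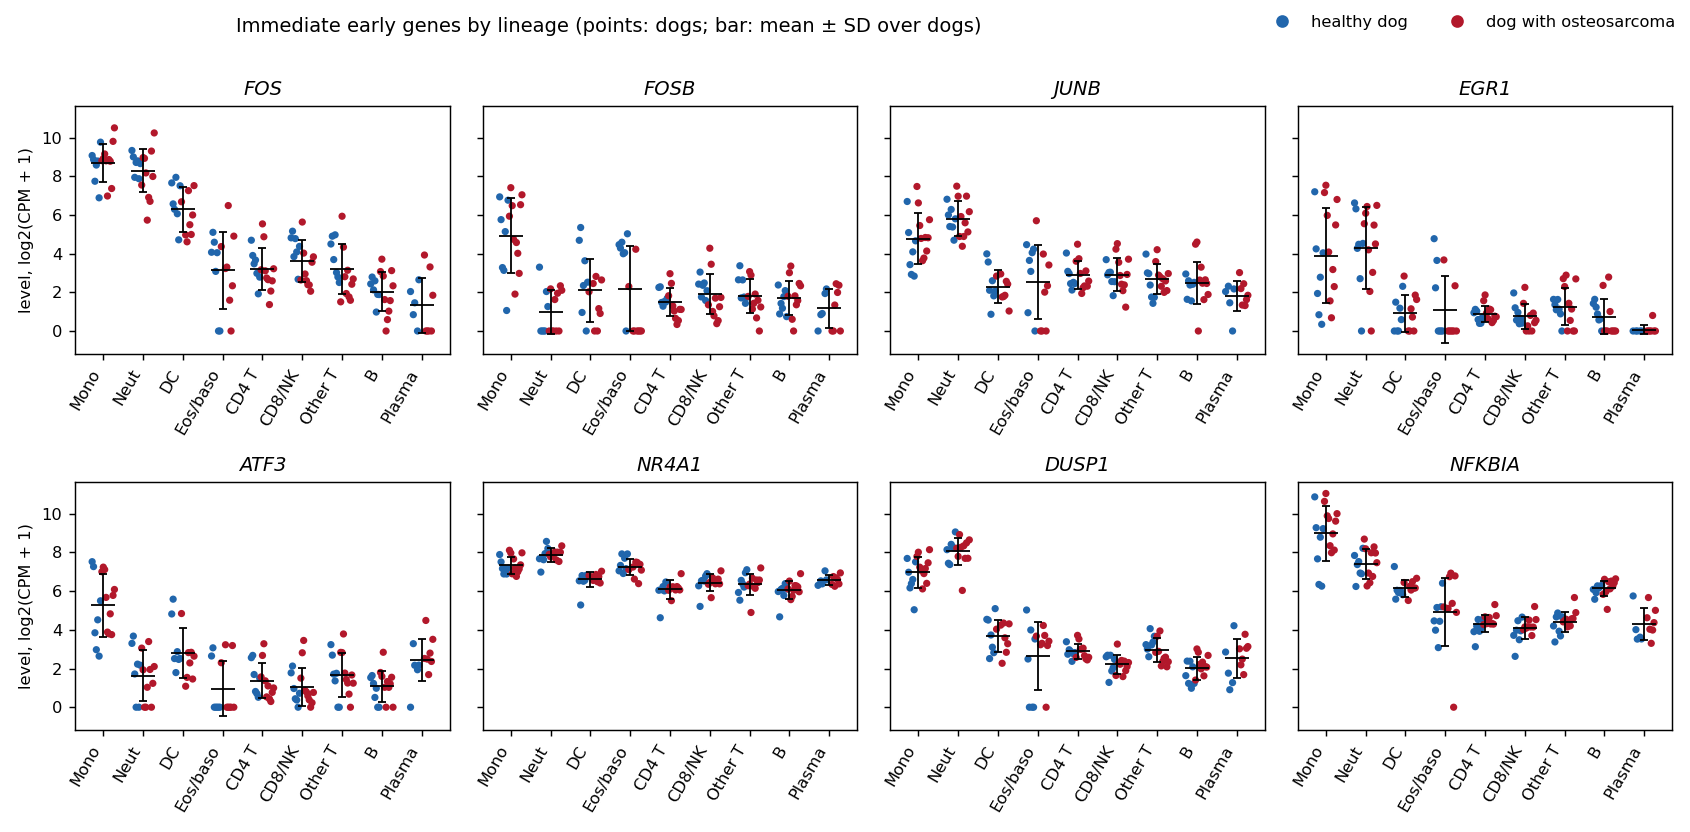
Level of each member, log2(CPM + 1), in 9 lineages. Points are dogs (blue healthy, red OS), black bars the mean ± SD over dogs with at least 25 cells. FOS, DUSP1, JUNB and EGR1 stand high in monocytes (Mono) and neutrophils (Neut), FOSB and ATF3 in monocytes, and NR4A1 is present in each lineage.

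Among the AP-1 subunits, the FOS level in monocytes was 500 ± 327 CPM (SD, n = 17), with a lowest value of 117 in H6, a median of 447 and a highest of 1449 in OS10. In neutrophils it was 395 ± 276 CPM and in CD4 T cells 11.4 ± 11.4 CPM (SD, n = 17 each). Monocytes exceeded CD4 T cells in each of the 17 dogs, with a difference of CD4 T cells minus monocytes of -5.47 ± 1.22 on the log2 scale (mean ± SD; adjusted p = 9.35e-05, exact sign-flip permutation test). Monocytes and neutrophils did not differ for FOS beyond the spread between dogs (difference 0.40 ± 1.07 on the log2 scale, adjusted p = 0.191, same exact test), and the value was -0.15 with neutrophils lacking the clusters led by CAMP, LTF and MMP8. Dendritic cells followed them, 15 dogs having enough of these cells, at 101 ± 73 CPM.

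FOSB was 55.7 ± 52.8 CPM in monocytes (SD, n = 17), from 1.08 in H6 to 169 in OS2 with a median of 34.2. In neutrophils it was near the detection limit, with 26 UMIs counted over the 17 dogs, so the 2 FOS genes differed in where they were found. JUNB ran in the opposite order, at 66.3 ± 44.1 CPM in neutrophils and 40.6 ± 45.2 CPM in monocytes, and neutrophils were higher in 16 of 17 dogs (monocytes minus neutrophils -1.04 ± 1.01 on the log2 scale, adjusted p = 6.73e-04, exact sign-flip permutation test). In lymphocytes the mean level of JUNB was between 6.29 CPM in B cells and 7.86 CPM in CD8/NK cells.

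EGR1 was 44.8 ± 61.3 CPM in monocytes and 36.7 ± 34.2 CPM in neutrophils, 2 levels that did not differ beyond the spread between dogs (adjusted p = 0.400, exact sign-flip permutation test). It was about 1 CPM in CD4 T cells, CD8/NK cells and B cells, where 154, 78 and 30 UMIs were counted over all dogs. ATF3 was 63.6 ± 61.2 CPM in monocytes and 3.43 ± 3.73 CPM in neutrophils, and monocytes were higher in 17 of 17 dogs (3.63 ± 1.54 on the log2 scale, adjusted p = 9.35e-05, exact test). With a pseudocount of 10 CPM in place of 1 this difference was 1.998, and that of CD4 T cells minus monocytes moved from -3.88 to -2.11 for ATF3, from -3.43 to -1.93 for FOSB, from -3.02 to -1.53 for EGR1 and from -1.89 to -1.20 for JUNB, with the calls kept.

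NR4A1 was the member present most evenly over the lineages, from 68.1 ± 20.03 CPM in B cells and 69.9 ± 19.3 CPM in CD4 T cells to 238 ± 57.9 CPM in neutrophils (SD, n = 17 each). CD4 T cells and B cells were neighbors that did not differ (adjusted p = 0.482), and neither did monocytes and the eosinophil and basophil group (adjusted p = 0.713, exact tests). DUSP1 was 293 ± 117 CPM in neutrophils, 143 ± 70 CPM in monocytes and 6.63 ± 2.21 CPM in CD4 T cells. Neutrophils exceeded monocytes for DUSP1 in 15 of 17 dogs (monocytes minus neutrophils -1.08 ± 0.90 on the log2 scale, adjusted p = 2.39e-04, exact test), and by -1.65 with neutrophils lacking the clusters led by CAMP, LTF and MMP8.

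NFKBIA was 741 ± 614 CPM in monocytes, 193 ± 98.2 CPM in neutrophils, 72.2 ± 17.6 CPM in B cells and 17.2 ± 6.74 CPM in CD8/NK cells (SD, n = 17 each). Monocytes exceeded neutrophils in 14 of 17 dogs (1.58 ± 1.44 on the log2 scale, adjusted p = 1.76e-03, exact sign-flip permutation test). Among lymphocytes, NFKBIA was highest in B cells, which did not differ from dendritic cells (adjusted p = 0.857, exact test).

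Within monocytes, dogs differed widely in NFKBIA. H6 at 75.6 CPM and H4 at 80.4 CPM were the lowest, the median dog had 601 CPM, and OS2 at 2118 CPM, H1 at 1876 CPM and OS1 at 1597 CPM were the highest. The highest dog was 28 times the lowest. Both groups held high and low dogs, so the spread crossed the line between healthy dogs and dogs with OS. In B cells the same gene had a range of 3.05 times, from 32.3 CPM in OS4 to 98.6 CPM in OS10. The SD over dogs on the log2 scale was 1.41 in monocytes, 0.40 in B cells and 0.45 in CD4 T cells.

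EGR1 was the member with the widest spread in monocytes. H6 had 0.271 CPM (3 UMIs in 965 cells), OS6 had 0.606 CPM and H4 had 0.791 CPM, whereas OS2 had 184 CPM, H1 had 146 CPM and OS1 had 142 CPM. The dogs at both ends were thus largely those at the ends of NFKBIA. The SD over dogs of EGR1 on the log2 scale, 2.45, was larger than that of 99.97% of the 3167 genes within 2-fold of its mean level in monocytes. For FOSB (SD 1.93) and ATF3 (SD 1.62) the same share was 99.7% and 99.3%, and for NR4A1 (SD 0.44) it was 85.1%.

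ATF3 in monocytes had a lowest level of 5.24 CPM in H6, a median of 44.3 CPM and a highest of 183 CPM in H1. JUNB had a lowest level of 6.15 CPM in H6, a median of 26.6 CPM and a highest of 176 CPM in OS1. DUSP1 was between 31.9 CPM in H6 and 282 CPM in OS10 with a median of 134 CPM. NR4A1 stayed within 2.56 times, from 108 CPM in OS6 to 276 CPM in OS1. The monocytes of H6 were the lowest for 7 of the 8 members, NR4A1 being the exception.

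**Figure D2:**
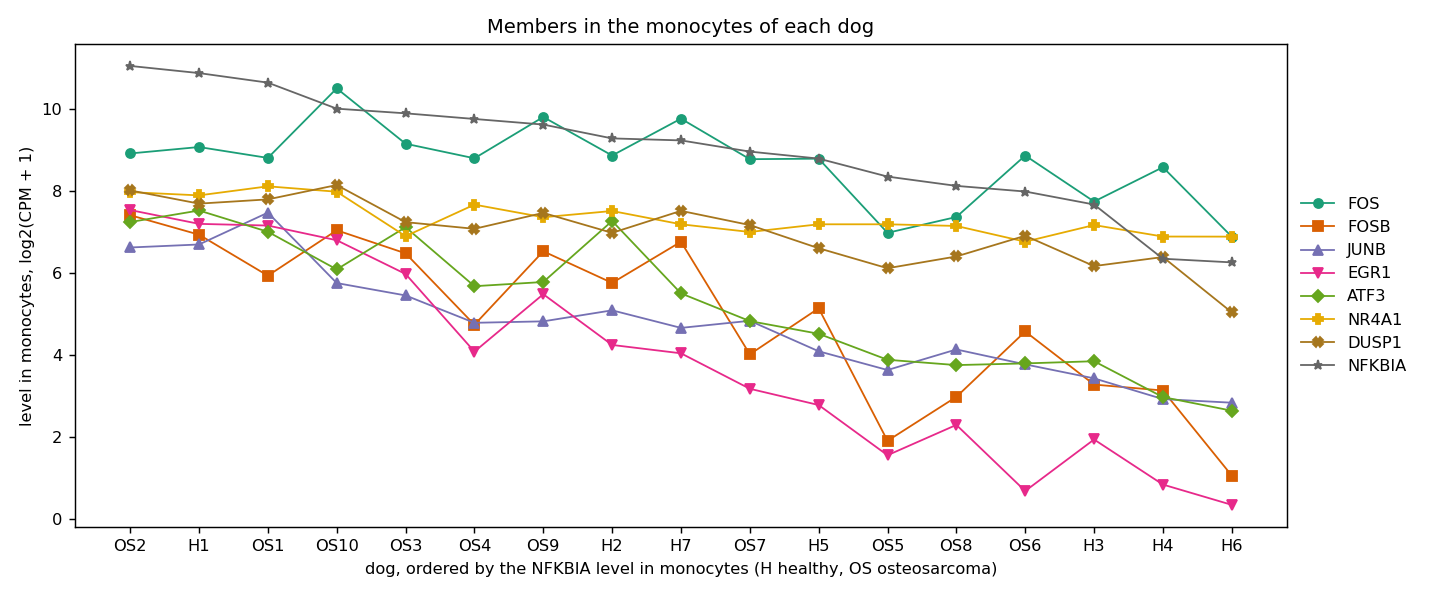
Level of the 8 members, log2(CPM + 1), in the monocytes of each dog, with dogs ordered by NFKBIA. Lines join the dogs of 1 gene to show its course and carry no order in time. NFKBIA falls from 2118 CPM in OS2 to 75.6 CPM in H6, and EGR1, ATF3 and JUNB take a like course, whereas FOS peaks in OS10.

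The members moved together from dog to dog in monocytes. Of the 28 pairs of members 26 passed an adjusted p of 0.05 (Pearson r, two-sided permutation test with 100000 resamples), all 28 r values were positive, and their median was 0.85. The lowest absolute r that passed in any lineage was 0.55. Of all pairs of 10146 genes in monocytes 13.5% reached it, with a median r of 0.00, and of pairs of genes with at least 50 CPM 27.5%. The 28 pairs share their members and are not independent. JUNB and EGR1 had r = 0.94 (Spearman rho 0.95), EGR1 and NFKBIA r = 0.94 (rho 0.98), and ATF3 and NFKBIA r = 0.93 (rho 0.92), each with p = 1e-05, the smallest the permutations can give, and adjusted p = 1.08e-04. The pairs that did not pass were FOS with JUNB (r = 0.54, adjusted p = 0.059, permutation test) and FOS with NR4A1 (r = 0.40, adjusted p = 0.213, permutation test). With monocytes of the largest cluster only, 10472 of 15119 cells, NFKBIA ranged from 70.4 to 1903 CPM and 25 of 28 pairs passed. These levels are sums over a dog's monocytes. The clusters were formed without the members, so a subset marked by these genes alone would not be set apart. The study lists NFKBIA, IL1B and CXCL8 among the markers of CD4+ monocytes. The make-up of a dog's monocytes, in this cluster and in the remaining ones, was not tested.

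In CD4 T cells 16 of 28 pairs passed, 15 of them positive, and in CD8/NK cells 9 of 28, 8 of them positive. An absolute r of at least 0.55 was found for 14.3% and 9.77% of all pairs of genes. For pairs of genes with at least 50 CPM it was 31.8% and 22.8%. FOS, FOSB, JUNB, ATF3 and DUSP1 made up most of the members' pairs that passed, such as FOS with FOSB in CD4 T cells (r = 0.87, rho = 0.75, adjusted p = 1.65e-04, permutation test). The negative pair was the same in both lineages, ATF3 with NR4A1 (r = -0.55 in CD4 T cells and -0.64 in CD8/NK cells, adjusted p = 0.047 and 0.031, permutation tests). Without the 2 dogs farthest from the median of ATF3 it was -0.15 in CD4 T cells and -0.65 in CD8/NK cells. With Spearman's rho this pair passed in neither lineage (adjusted p = 0.146 and 0.090, permutation tests). In B cells 2 of 28 pairs and in neutrophils 4 of 28 passed, beside 8.84% and 6.58% of all pairs of genes, and 19.4% and 15.4% of those with at least 50 CPM. The counts rested in part on single dogs. Without OS2 there were 9 pairs in CD4 T cells, 4 in CD8/NK cells and 0 in B cells, B cells held 1 without OS3, OS5 or OS9, and neutrophils held 2 without OS5. With Spearman's rho 7 pairs passed in CD4 T cells, 4 in CD8/NK cells and 2 each in B cells and neutrophils. Over the 5 lineages 57 of 140 pairs passed, beside 10.6% of all pairs of genes, and 65 had an unadjusted p below 0.05. Whether the lineages differed in these counts was not tested, and the members' lower counts in lymphocytes limit their precision there.

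**Figure D3:**
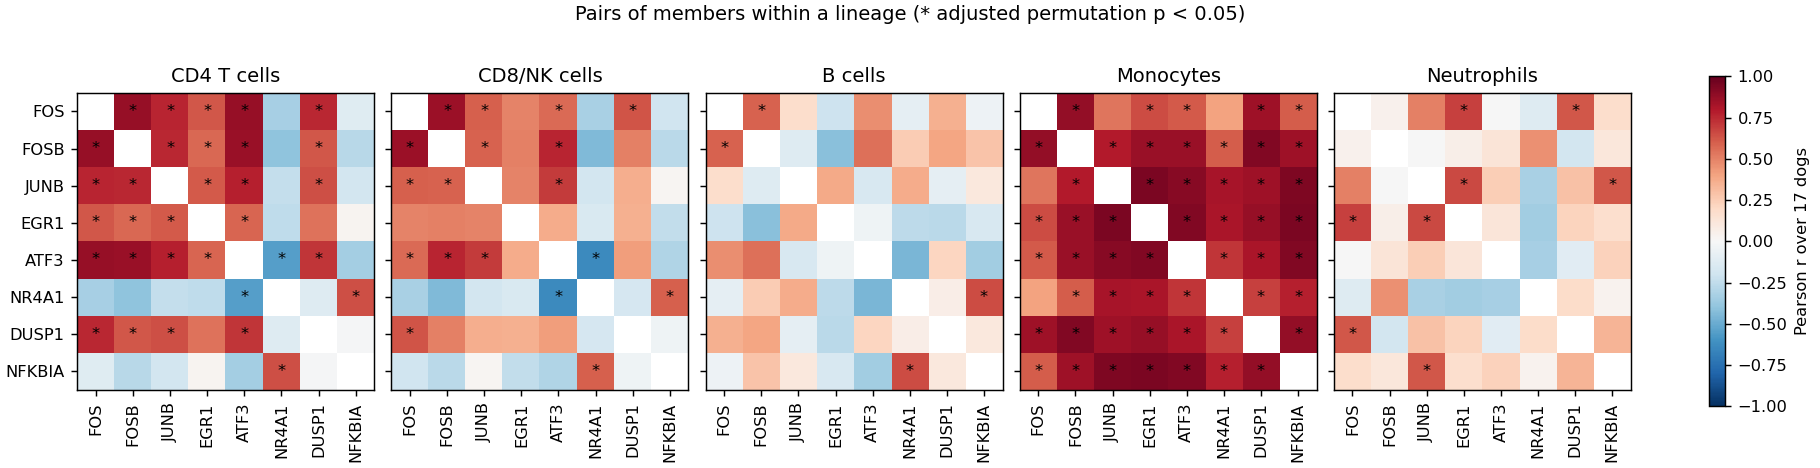
Pearson r over 17 dogs between pairs of members within each of 5 lineages, from -1 (blue) to 1 (red), with an asterisk at an adjusted permutation p below 0.05. Monocytes hold 26 marked pairs of 28, CD4 T cells 16, CD8/NK cells 9, neutrophils 4 and B cells 2.

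To see whether a level followed the dog, the same gene was compared between 2 lineages over the 17 dogs. Of 80 combinations of 8 members and 10 pairs of lineages, 26 passed an adjusted p of 0.05 (two-sided permutation test), and each of the 26 r values was positive. Unadjusted p was below 0.05 for 33, and with Spearman's rho 13 passed. Over 10146 genes 22.7% of 101460 such combinations passed with a positive r, and with the adjustment made over all of these 23 of the members' 80 passed. The count was 17 without H2 and 18 without OS2. ATF3 and NR4A1 passed in 6 pairs of lineages each, FOS and JUNB in 5, EGR1 in 2, FOSB and NFKBIA in 1, and DUSP1 in 0, where 1 pair had an unadjusted p below 0.05. With rho the counts were 4 for ATF3, 2 each for NR4A1, JUNB and NFKBIA, 1 each for FOS, FOSB and EGR1, and 0 for DUSP1. NFKBIA in CD4 T cells and B cells passed with rho alone (rho = 0.69, adjusted p = 0.026; r = 0.49, adjusted p = 0.124, permutation tests).

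Genes at large were also correlated between a dog's lineages, which gives the measure to read these counts against. Of 10146 genes with at least 10 UMIs in each lineage, 26.5% had a median r of at least 0.5 over the 10 pairs of lineages, and the median was 0.32. Of the members, 4 of 8 reached 0.5, namely NR4A1 (0.66), ATF3 (0.62), JUNB (0.57) and FOS (0.53). FOSB (0.46), EGR1 (0.41), NFKBIA (0.31) and DUSP1 (0.24) did not. By pair of lineages and with the adjustment made over all genes, B cells passed for 3 members with CD4 T cells, against 32.1% of all genes, for 3 with CD8/NK cells (26.2%) and for 0 with monocytes (21.2%). Neutrophils passed for 2 members with CD4 T cells (9.33% of all genes), for 1 with CD8/NK cells (8.43%) and for 1 with B cells (6.42%). Among 2248 genes with at least 50 CPM in CD4 T cells, CD8/NK cells, B cells and monocytes the median was 0.50, and NR4A1 was the 1 member at this level.

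**Figure D4:**
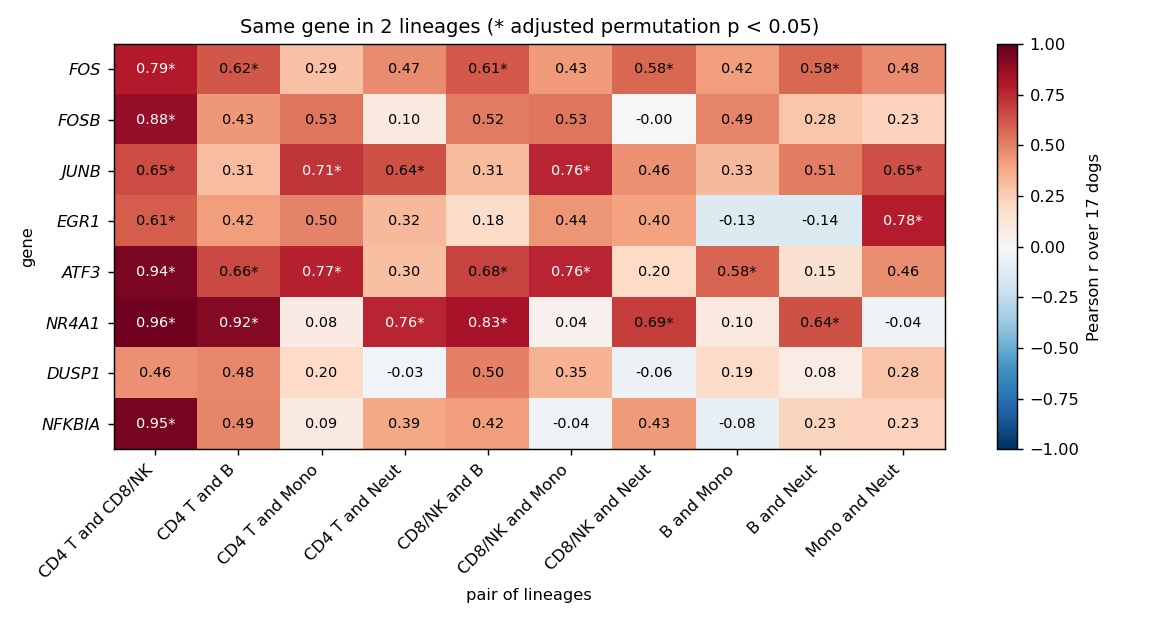
Pearson r over 17 dogs of the level of each member (rows) in 2 lineages (columns), with an asterisk at an adjusted permutation p below 0.05. CD4 T and CD8/NK cells are marked for 7 of 8 members, the row of DUSP1 has no mark, and NFKBIA is marked for that pair of lineages alone.

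The 2 T lineages ran together for most members. CD4 T cells and CD8/NK cells passed for 7 of 8 members, against 54.8% of all genes, with a median r of 0.83 over the members against 0.64 over all genes. The r was 0.96 for NR4A1 (rho 0.85), 0.95 for NFKBIA (rho 0.88), 0.94 for ATF3 (rho 0.90) and 0.88 for FOSB (rho 0.81), each with adjusted p = 2.00e-04 in the permutation test. For FOS it was 0.79 (rho 0.80, adjusted p = 1.14e-03, permutation test), and OS2 was the highest dog in both lineages, at 45.4 and 48.6 CPM. DUSP1 had r = 0.46 (rho 0.36, adjusted p = 0.131, permutation test). For 2 of the 7 members the call was less firm. JUNB had r = 0.65 but rho = 0.56 (adjusted p for rho 0.085, permutation test) and r = 0.45 without H1 and OS2. EGR1 had r = 0.61 but rho = 0.40 (p = 0.115, permutation test), r = 0.20 without OS1 and OS2, and lost its call in 5 of the 17 fits without 1 dog. With Spearman's rho 5 of 8 members passed.

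Between T cells and the monocytes of the same dog, ATF3 and JUNB passed the threshold in both T lineages. These 2 of 8 members stood against 34.9% of all genes for CD4 T cells and 26.0% for CD8/NK cells, and the median r over the members was 0.40 and 0.44, against 0.48 and 0.40 over all genes. These counts show nothing particular to the members. For ATF3 the r between CD4 T cells and monocytes was 0.77 (p = 2.80e-04, adjusted p = 2.49e-03; rho = 0.72, adjusted p = 0.018, permutation tests). It was 0.90 within healthy dogs, 0.78 within dogs with OS and 0.72 without H2 and OS3. OS3, H2, OS2 and H1 were the 4 highest dogs for ATF3 in CD4 T cells, at 8.72, 5.41, 5.39 and 4.90 CPM, and they had 138, 153, 150 and 183 CPM in monocytes. For JUNB the r between the same lineages was 0.71 (adjusted p = 8.20e-03; rho = 0.63, adjusted p = 0.044, permutation tests), and 0.57 without H1 and OS2. CD8/NK cells gave r with monocytes of 0.76 for each of these genes (rho 0.75 for ATF3 and 0.66 for JUNB, adjusted p = 1.14e-03 and 2.84e-03, permutation tests). FOSB had r = 0.53 with monocytes in both T lineages (unadjusted p = 0.028, adjusted p = 0.079 in each), and EGR1 r = 0.50 in CD4 T cells (unadjusted p = 0.040, adjusted p = 0.099, permutation tests). Whether the members differ in these r values was not tested.

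NFKBIA and NR4A1 had r near 0 between T cells and monocytes over all 17 dogs. For NFKBIA the r of monocytes was 0.09 with CD4 T cells, -0.04 with CD8/NK cells, -0.08 with B cells and 0.23 with neutrophils, with adjusted p between 0.506 and 0.911 (permutation tests). H1 shows it, with 1876 CPM in monocytes, the second highest dog, and 14 CPM in CD4 T cells, below the median of 18.9. OS9 was the highest dog in both T lineages, at 38.6 and 35.9 CPM, and had 785 CPM in monocytes. For NR4A1 the r of monocytes with the other 4 lineages was between -0.04 and 0.10, but it was between -0.54 and -0.46 within the 7 healthy dogs and between 0.37 and 0.51 within the 10 dogs with OS. The difference between the groups was not tested. A p above the threshold does not show that the levels were unrelated, and whether these r values differ from those of ATF3 was not tested.

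**Figure D5:**
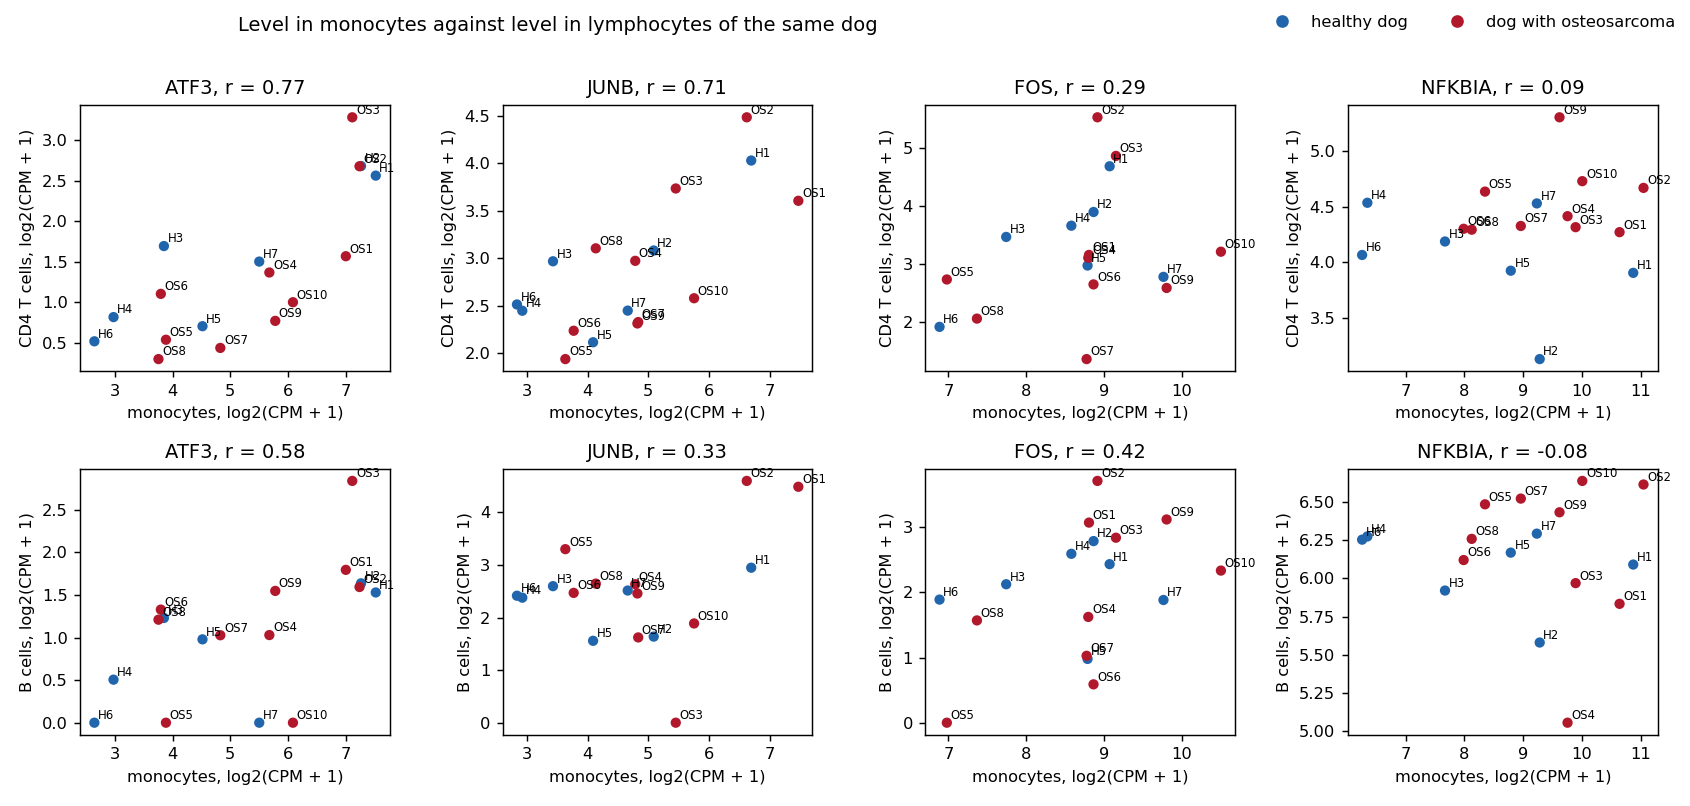
Level in monocytes (x, log2(CPM + 1)) against the level in CD4 T cells (top) or B cells (bottom) of the same dog for ATF3, JUNB, FOS and NFKBIA, 1 labelled point a dog (blue healthy, red OS). ATF3 and JUNB rise together in monocytes and CD4 T cells, r = 0.77 and 0.71, and NFKBIA has r = 0.09.

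NR4A1 passed in each pair of lymphocyte lineages. The r was 0.92 between CD4 T cells and B cells (adjusted p = 8.00e-04; rho = 0.67, adjusted p = 0.028, permutation tests) and 0.83 between CD8/NK cells and B cells (adjusted p = 2.84e-03, permutation test). With rho, 0.47, CD8/NK cells and B cells no longer passed (adjusted p = 0.154, permutation test), and of the 6 pairs of lineages called for NR4A1 2 passed. These values rested in part on H2, the lowest dog in each lymphocyte lineage (23.7, 36.04 and 24.5 CPM), and OS10, the highest (119, 132 and 119 CPM). Without both, r between CD4 T cells and B cells was 0.64, and without H2 and OS3 r between CD8/NK cells and B cells was 0.45. Without H2 alone the pairs of CD4 T cells with neutrophils, CD8/NK cells with B cells or neutrophils and B cells with neutrophils no longer passed (r = 0.53, 0.62, 0.43 and 0.31). H2 was also the lowest dog for NR4A1 in neutrophils, at 126 CPM, but in monocytes it had 181 CPM, above the median of 145.

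Monocytes and neutrophils, the 2 myeloid lineages, ran together for EGR1 (r = 0.78, adjusted p = 1.60e-03; rho = 0.83, adjusted p = 2.00e-03, permutation tests) and, by r alone, JUNB (r = 0.65, adjusted p = 0.023; rho = 0.54, adjusted p = 0.097, permutation tests). These 2 of 8 members stood against 8.09% of all genes. For JUNB the r was 0.46 without H6 and OS1 (p = 0.087, permutation test). For EGR1 the r was 0.76 within healthy dogs, 0.83 within dogs with OS and 0.73 without H6 and OS2. In neutrophils no EGR1 UMI was counted in H6 (0 of 164 cells, which allows a share of cells with a UMI of up to 1.83%) or OS6 (0 of 79 cells, up to 3.80%), the dogs that were also lowest in monocytes. These limits concern cells with a UMI, not cells that express the gene. For FOS the r between the 2 lineages was 0.48 (adjusted p = 0.123, permutation test), and OS10 was the highest dog in both, at 1449 and 1208 CPM.

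The same point can be put as a share of variation. In an additive layout of dog and lineage over CD4 T cells, CD8/NK cells, B cells and monocytes, the lineage carried between 44.7% (JUNB) and 92.8% (DUSP1) of a member's sum of squares. The dog carried 33.4% for JUNB, 25.8% for NR4A1, 24.3% for FOSB, 20.2% for ATF3, 16.7% for EGR1, 8.74% for FOS, 4.56% for NFKBIA and 3.45% for DUSP1. With a pseudocount of 10 CPM the share of FOS was 5.25%, and without OS2 that of DUSP1 was 2.26%. Over all genes the median was 21.7%. Of the variation that remained once the lineage means were removed, the dog carried 74.0% for ATF3 and 65.0% for FOS, but 34.0% for EGR1 and 32.5% for NFKBIA, where the median over all genes was 52.1%.

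RNA released from monocytes can add UMIs to other cells in droplet data. LYZ, the lysozyme gene that marks monocytes here, had a level in CD4 T cells that was 0.165% of that in monocytes in the median dog, and 0.169% in CD8/NK cells. For each of the 8 members the ratio of CD4 T cells to monocytes was above that of LYZ in 17 of 17 dogs. In CD8/NK cells this was so in 17 dogs for 6 members, in 15 for ATF3 and in 14 for EGR1. The remaining dogs had 0 UMIs of the gene in question in CD8/NK cells. A dog whose monocytes hold few UMIs of a gene has a high ratio whatever the source. This was so for EGR1 in H6, with 3 UMIs each in CD4 T cells and monocytes. In B cells LYZ stood at 3.6% of monocytes, over its share in the T lineages of the same libraries, whereas S100A12, a neutrophil gene, stood at 0.0135% of neutrophils in B cells and 0.0120% in CD4 T cells. The other genes set for this comparison did not run alike. MS4A1 stood at 0.201% of B cells in CD4 T cells, and CD3E at 0.676% of CD4 T cells in B cells and 2.15% in neutrophils. CD79A, a B cell gene, stood at 138% of B cells in CD4 T cells, 132% in CD8/NK cells and 49.8% in monocytes. It was at 8698 CPM in CD4 T cells, where MS4A1 was at 0.663 CPM, so its ratio gives no measure of carry-over. The source of the CD79A UMIs was not tested. The ratio of B cells to monocytes was above that of LYZ in 0 of 17 dogs for FOS, 6 for ATF3, 7 each for EGR1 and DUSP1, 10 for FOSB, 14 for NFKBIA, 16 for JUNB and 17 for NR4A1. Whether LYZ in B cells was carried over or their own was not tested, so these counts are given as values alone. In neutrophils LYZ stood at 18.7% of monocytes, and no such comparison was made.

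The share of cells with a UMI showed the same spread among dogs. After thinning to 2000 UMIs a cell, which left out 432 of 15119 monocytes (215 healthy and 217 OS), NFKBIA had a UMI in 12.4% of the monocytes of H6, 61.1% in the median dog and 94.3% in OS2. Unthinned, at a median of 11071 UMIs, the shares ran from 40.8% to 98.3%. In CD4 T cells, at a median of 5660 UMIs, the thinned share was between 2.60 and 7.51%, and the unthinned share between 6.55 and 16.3%. FOS had a UMI in 15.7% (H6) to 87.2% (OS10) of thinned monocytes and in 0.379% (OS7) to 6.85% (OS2) of thinned CD4 T cells. NR4A1 had one in 18.7 to 34.7% of thinned monocytes and 7.02 to 19.4% of thinned CD4 T cells.

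Genes of related lists were set beside NFKBIA in monocytes. Of 18 genes of NF-kB feedback and targets, 17 had r of at least 0.7 with NFKBIA over the monocytes of the 17 dogs, and the median r was 0.91. The exception was NFKBID (r = -0.05). NFKBIZ (r = 0.99), another gene of the IκB family, TNFAIP3 (r = 0.98), which encodes the deubiquitinase A20, and IL1B (r = 0.98), an inflammatory cytokine, were the 3 genes most like NFKBIA among 3280 genes of at least 50 CPM. TNFAIP3 ranged from 5.15 to 1530 CPM and IL1B from 10.8 to 1970 CPM over the dogs' monocytes. Of 35 other immediate early genes, 23 had r of at least 0.7 (median 0.76), such as MAFF, an AP-1 related factor (r = 0.98), and IER3, which modulates apoptosis (r = 0.95). Over all 14136 genes 4.55% reached 0.7 and the median was 0.01. As correlations over the same libraries, these values describe the dogs and were given no test.

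Among genes of heat shock and stress, 2 of 12 had r of at least 0.7 with NFKBIA and the median was 0.37. The 2 were HSPA5 (r = 0.85), the chaperone of the endoplasmic reticulum, and DDIT3 (r = 0.72). Among 6 glucocorticoid response genes SGK1, a kinase (r = 0.97), reached 0.7, and FKBP5, a classical target of the receptor, had r = 0.19. FKBP5 had a median r between lineages of 0.88, against 0.31 for NFKBIA.

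Other genes followed other members in monocytes. ATF3 was most like REL, an NF-kB subunit (r = 0.99), FOSB was most like CREB5, a CREB family factor (r = 0.97), and FOS was most like ODC1, the first enzyme of polyamine synthesis (r = 0.93). NR4A1, the member measured well in each lineage, had as most like genes over CD4 T cells, CD8/NK cells, B cells and monocytes ARF6 (mean r 0.83), TUBB4B (0.80) and SBNO2 (0.79). In CD4 T cells, FOS had r of at least 0.7 with 7 of 33 other immediate early genes (median 0.52), among them NR4A2 (r = 0.88) and RGS1 (r = 0.81), and with 3 of 18 genes of the NF-kB list (median 0.17), against 2.07% of all genes. TNF, a cytokine gene of that list, ran the other way with FOS (r = -0.82).

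Dogs with OS and healthy dogs were then compared within each lineage. In monocytes, NFKBIA was between 75.6 and 1876 CPM in healthy dogs (median 441, n = 7) and between 253 and 2118 CPM in dogs with OS (median 825, n = 10). EGR1 was between 0.271 and 146 CPM (median 5.87) and between 0.606 and 184 CPM (median 29.8), in the same order. The groups overlapped over most of their ranges for both genes. The log2 fold change of OS over healthy dogs was 0.64 (SE 0.63) for NFKBIA and 1.07 (SE 1.19) for EGR1, with adjusted p = 0.911 and 0.921 in edgeR's quasi-likelihood test. Without H1 they were 1.37 and 3.02 (adjusted p = 0.566 and 0.549, edgeR), and without OS2 they were 0.37 and 0.63. All 8 members had a fold change above 0 in monocytes, with a median of 0.44 against 0.02 over all genes and adjusted p between 0.889 and 0.992, but the value of ATF3, 0.08, changed sign in 8 of 34 alternatives. The members are strongly correlated over dogs in monocytes, so these are not 8 independent values. Of the 8 members, 6 were above 0 in CD4 T cells, 7 in B cells and 4 each in CD8/NK cells and neutrophils.

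No member passed an adjusted p below 0.01 with an absolute log2 fold change above 0.58 in any of the 5 lineages. The background was 0.0% in each of them, with 0 genes called of 14480 in CD4 T cells, 13557 in CD8/NK cells, 12578 in B cells, 14137 in monocytes and 10631 in neutrophils. Unadjusted p was below 0.05 for 506, 490, 583, 827 and 865 genes, in the same order, and DESeq2 called 1 gene in monocytes, no member, and 0 in the others. With all dogs, NFKBIA in CD4 T cells was the 1 member and lineage with an unadjusted p below 0.05. Without H1 it was below 0.05 in monocytes for JUNB, EGR1 and NFKBIA, as for 1171 of all genes, and 0 genes were called. In CD4 T cells, with all dogs, the level of NFKBIA was between 7.75 and 22.2 CPM in healthy dogs (median 15.8) and between 18.3 and 38.6 CPM in dogs with OS (median 19.7), so that the groups overlapped. The log2 fold change was 0.50 (SE 0.19, adjusted p = 0.998, edgeR).

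The related lists gave no call either. In monocytes 17 of 18 NF-kB genes and 30 of 35 other immediate early genes had a fold change above 0, with medians of 0.45 and 0.24, and none passed in edgeR (0 and 1 genes with an unadjusted p below 0.05). In neutrophils 7 of 16 and 11 of 32 were above 0, with medians of -0.11 and -0.12. In CD4 T cells it was 12 of 18 and 18 of 33, in CD8/NK cells 11 of 18 and 15 of 33, and in B cells 8 of 18 and 15 of 30. The share of all genes above 0 is not given here, so these counts have no background. The OS difference in monocytes minus that in CD4 T cells passed for 0 of 8 members (permutation test of the within-dog difference), with the lowest p of 0.113 for JUNB (difference 0.75 on the log2 scale, adjusted p = 0.478). This test was not run on all genes, so the count cannot be set against genes at large.

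Measures of the libraries were set beside the members' levels. Over the 17 dogs, none of 40 correlations of a member's mean level over the 5 lineages with UMIs per cell, mitochondrial percentage, barcodes kept, neutrophil share or platelet share passed an adjusted p of 0.05 (permutation test, lowest adjusted p = 0.816). The share of all genes that would pass was not computed, so this count has no background. Levels in monocytes alone, where dogs differed widely, were not set beside these measures. JUNB with the percentage of barcodes kept had an unadjusted p of 0.046 (r = -0.54), and r = -0.10 without OS1 and OS8. H7 and OS8 were the 2 dogs farthest from the median neutrophil share. Without both, that share had r = 0.73 with JUNB (p = 2.03e-03), 0.65 with EGR1 (p = 9.23e-03) and 0.60 with NFKBIA (p = 0.017), and over all dogs rho was 0.64 for NFKBIA (p = 7.51e-03), permutation tests with no adjustment. Its part in these levels was not tested. The labels give 1 protocol for all dogs, with blood separated soon after the draw, and 1 instrument, a Chromium iX, where the study's methods name a Chromium controller or a Chromium iX. Each dog's instrument, time to capture and batch are not given in the sources used here, and their part in the differences between dogs was not tested.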

How the data were processed

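The authors counted UMIs per gene and cell barcode with Cell Ranger 7.0.0 against CanFam3.1, with and without intronic reads, and deposited 1 matrix of raw counts per dog; which of the 2 the matrices hold is not known. JUN, KLF2, SOCS3, HSPE1 and HSPD1 were not analysed here.

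The study's limits kept 84345 of 93013 cells, those between 200 and 4500 genes and between 500 and 20000 UMIs whose mitochondrial percentage was below 10. Scrublet with an expected rate set by each dog's number of barcodes removed 3938 doublets, where its automatic threshold called 1489. Clustering (Python 3.11.15, scanpy 1.11.5, leidenalg 0.10.2) used 2000 variable genes, 30 principal components, a correction across dogs, 20 neighbors and a resolution of 1.0, without the members, the related lists and ribosomal and mitochondrial genes. Clusters were named from marker lists, with thresholds set after the clusters had been seen. Platelets and erythrocytes (3507 cells) were left out.

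Counts were summed per dog and lineage with at least 25 cells. Genes with at least 10 counts were tested between groups with edgeR 4.0.16 (R 4.3.3, limma 3.58.1) and, as an alternative, DESeq2 1.42.0, with Benjamini-Hochberg adjustment over all genes tested. Levels were log2(CPM + 1) after TMM scaling. Correlations over dogs used two-sided permutation tests with 100000 resamples (scipy 1.17.1), and lineages were compared with exact sign-flip tests, adjusted over all members and pairs; both tests were also run on 10146 genes with at least 10 UMIs in each of 5 lineages, and r was computed for all pairs of these genes within a lineage. Procedures were tested on simulated data. Limits for counts of 0 use 3 counts and cover counting error only.

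The genes named followed a rule: all members, any related gene past the OS test (there was none), the 3 genes of each list with the highest median r between lineages at a mean of at least 50 CPM, and the 3 genes most like each member of that level. The members and lists were chosen with earlier results of these data known, and genes named for their r in 1 lineage were chosen after their values were seen. So were CXCL8 and BTG2, named for their r between lineages though below 50 CPM. Condition and dog numbers came from the sample labels; age and sex came from the study and served only as covariates in alternatives. Alternatives were looser limits for cells, no removal of doublets, clustering without the correction, other resolutions and another seed, the members kept in clustering, at least 10 cells, a pseudocount of 10 CPM, other scalings and gene filters, DESeq2, rank correlation, residuals from the group means, age or sex as a covariate, a replicate block and each dog left out. Added after seeing the data were the largest monocyte cluster only, neutrophils without 687 cells led by CAMP, LTF and MMP8, and no scaling factor in the OS test.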

Additional observations from a re-analysis of the deposited data

Results flagged for a closer look

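Of 80 sets of values, 8 members in 5 lineages and 2 groups, 9 held a dog that stood apart from the rest of its group by Dixon's criterion, where chance gives about 1 in 20. Of the 9, 5 concerned NR4A1 in lymphocytes. H2 was the lowest healthy dog in CD4 T cells (23.7 CPM, the next dog at 63.6), in CD8/NK cells (36.04 CPM, the next at 76.4) and in B cells (24.5 CPM, the next at 53.9). Among dogs with OS, OS10 was the highest in CD4 T cells (119 CPM, the next at 74.5) and OS3 the lowest in CD8/NK cells (49.7 CPM, the next at 80.9).

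DUSP1 was highest in the CD8/NK cells of OS2 (8.60 CPM, the next at 4.35) and lowest in the neutrophils of OS5 (64.6 CPM, the next at 206). NFKBIA was highest in the CD4 T cells of OS9 (38.6 CPM, the next at 25.6) and lowest in the B cells of OS4 (32.3 CPM, the next at 56.0). None of the 9 was in monocytes, where the dogs spread without a gap of this size. The causes were not tested.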

How the results depend on the processing

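The 26 correlations of a member between lineages were between 13 and 35 under the alternatives. With Spearman's rho in place of Pearson's r there were 13, and with single dogs left out between 17 and 28, the lowest count being without H2. The cause was not tested. The r values past the threshold kept their direction in every alternative run, but FOS in CD8/NK cells and neutrophils, FOS in B cells and neutrophils, and ATF3 in B cells and monocytes lost their call in 15, 12 and 12 of the 17 fits without 1 dog. The 57 pairs of members within lineages were between 41 and 60, the 26 of them in monocytes between 23 and 27, and the 178 differences between lineages between 173 and 191. The call that FOS in monocytes and neutrophils did not differ was lost without OS8 (0.55 on the log2 scale, adjusted p = 0.049, exact test), and that for EGR1 with neutrophils lacking the clusters led by CAMP, LTF and MMP8 (-0.91, adjusted p = 0.043, exact test). The median share of variation carried by the dog over the members, 18.4% (jackknife SE 3.43), was between 15.7 and 19.8%.

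No member was called between OS and healthy dogs in any of 35 alternatives of edgeR and DESeq2, and 0 were called with a replicate block on the dogs' numbers. These numbers only name dogs, and the correlations of same-numbered dogs' deviations lay between -0.43 and 0.33, so they did not pair the samples. EGR1 in monocytes had log2 fold changes between 0.59 and 3.02, the highest without H1 (edgeR's adjusted p = 0.549). In B cells and T cells, EGR1, ATF3 and FOSB rest on few UMIs, which limits each r there. The same holds for FOS and DUSP1 in B cells, with 116 and 89 UMIs over all dogs.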

Other observations

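Genes of the related lists were also compared between a dog's lineages. The median over genes of the median r between lineages was 0.69 for 5 measured genes of the glucocorticoid response, 0.58 for 10 genes of heat shock and stress, 0.43 for 16 genes of the NF-kB list and 0.36 for 29 other immediate early genes, against 0.32 over all genes. Genes of at least 50 CPM in CD4 T cells, CD8/NK cells, B cells and monocytes had a median of 0.50, and this level was reached by 1 of the 5, 7 of the 10, 3 of the 16 and 4 of the 29 genes, in the same order. FKBP5, a glucocorticoid receptor target and regulator of that receptor, had r between 0.79 and 0.97 in each of the 10 pairs of lineages. ATF4 (median r 0.81), HSPA5 (0.75) and HSP90AB1 (0.61) were highest in the stress list among genes of that level, REL (0.64), RELA (0.47) and NFKB1 (0.26) the NF-kB list, and KLF6 (0.58), BTG1 (0.53) and JUND (0.44) the other immediate early genes. Genes below that level were higher in some lists, such as CXCL8 (0.88) of the NF-kB list and BTG2 (0.74) of the other immediate early genes. Over the dogs, CXCL8 was between 16.6 and 10301 CPM in monocytes and between 0.107 and 84.3 CPM in CD4 T cells. How much of the latter was carried over from monocytes was not tested. In dogs with OS, the 6 glucocorticoid response genes had a median log2 fold change of 0.79 in monocytes, all 6 above 0, and none passed the test in edgeR (1 with an unadjusted p below 0.05). These values were computed with the results of the data known and compare lists without a test.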
